A study of Mus musculus with 60 samples.

Results

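The plasma membrane calcium pumps Atp2b1, Atp2b2, Atp2b3 and Atp2b4 and the sodium-calcium exchangers Slc8a1, Slc8a2 and Slc8a3 were described in brain tissue of mice that lack paraoxonase 2 (PON2) and of wild-type mice. These 7 genes were taken by name from the 20423 genes of the deposited count table, and all 7 passed the filter on low counts in every fit. Homozygous PON2-deficient mice (KO) were set against wild-type (WT) littermates from crosses of heterozygous parents. All mice had a C57BL/6J background, had gone through behavioural tests and were killed at 3 to 4 months of age. Cerebellum, striatum and cerebral cortex were sampled in 12 groups of region, sex and genotype with 5 libraries each, 60 libraries in all, of total RNA from frozen, pulverised tissue. The labels give each library a replicate number within its group and name no batch, and p-values therefore measure the spread between these libraries.

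Neurons remove calcium from the cytosol through the plasma membrane in a pair of ways. The pumps are calmodulin-activated ATPases with high affinity for calcium and modest speed, and they set the low resting level. The exchangers trade sodium ions that run in for calcium that goes out, work fast at lower affinity and depend on the sodium gradient that the sodium pump maintains. In mice the loss of Atp2b2 causes deafness and an unsteady gait, and the exchangers of brain are known for clearing calcium after trains of action potentials.

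Library totals lay between 26091911 and 28125224 counts, and 19944 to 20229 genes had a count. Expression is given as CPM, counts scaled to a common library size by TMM over all libraries. Pon2, the gene that encodes PON2, had 0.457 to 1.26 CPM in KO cerebellum, against 39.2 to 51.3 CPM in WT cerebellum. It had 2.54 to 6.91 CPM in KO striatum, against 44.7 to 56.8 CPM in WT striatum, and 2.34 to 5.62 CPM in KO cortex, against 50.2 to 58.9 CPM in WT cortex. Each region carried its own neurons: all 5 granule neuron markers were above 1 CPM in cerebellum, the striatal projection neuron list was highest in striatum and the cortical excitatory list was highest in cortex. 1 library, male KO striatum replicate 5, stood apart: the authors' weights gave it 0.0527 times the influence of a typical library of the region, and its transcripts deviated with their length (slope of -0.25 log2 units per doubling of length, against -0.08 to 0.04 in the other striatum libraries). The choroid plexus list, which marks tissue of the ventricles, varied widely between libraries, with 0.14 to 5.72 mean log2 CPM over all of them, and its part in the results was not tested beyond fits within regions that had it as a covariate, in which none of the 7 genes was called for genotype or sex. Results that rest on the library that stood apart are given with and without it.

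The promoters of Atp2b1, Atp2b4 and Slc8a2 are shown because these 3 genes, by their levels, were lower in cerebellum than in both other regions by at least 1 log2 unit. They are the 250 bases before a start site in RefSeq (GRCm38.p6), and capitals mark the GC box GGGCGG on either strand, a match of letters and not a shown binding site. RefSeq promoters were found for 6 of the 7 genes, Atp2b3 having no entry in the table. The Atp2b1 window, chr10:98914902-98915151 on the plus strand, lies inside the gene's annotated span and overlaps none of its exons. The Atp2b4 window, chr1:133753748-133753997 on the minus strand, lies inside the gene's span and shares 2 bases with its exons. It does not lie at the gene's annotated start, 133801041 on that strand, and its bases do not describe that start. The Slc8a2 window, chr7:16129576-16129825 on the plus strand, ends directly before the annotated gene start.
Atp2b1: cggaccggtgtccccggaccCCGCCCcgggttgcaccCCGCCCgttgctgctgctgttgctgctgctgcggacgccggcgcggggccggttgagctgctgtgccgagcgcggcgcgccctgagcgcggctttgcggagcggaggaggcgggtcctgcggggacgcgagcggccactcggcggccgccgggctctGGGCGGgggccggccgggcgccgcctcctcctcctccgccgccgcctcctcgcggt
Atp2b4: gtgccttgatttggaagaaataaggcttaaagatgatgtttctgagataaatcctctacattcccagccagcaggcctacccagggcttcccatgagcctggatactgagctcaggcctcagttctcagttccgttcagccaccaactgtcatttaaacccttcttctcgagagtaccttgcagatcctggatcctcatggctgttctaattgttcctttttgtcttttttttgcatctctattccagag
Slc8a2: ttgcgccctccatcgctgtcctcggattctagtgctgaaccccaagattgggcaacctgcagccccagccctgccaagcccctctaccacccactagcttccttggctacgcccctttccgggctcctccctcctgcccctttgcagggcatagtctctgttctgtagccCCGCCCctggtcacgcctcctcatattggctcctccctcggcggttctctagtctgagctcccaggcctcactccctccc

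The 3 windows had little in common. That of Atp2b1, which is the second of its 2 listed starts, held 41 CpG dinucleotides and 3 GC boxes and had a GC content of 80.8%. The Atp2b4 window held 2 CpG dinucleotides and no GC box at a GC content of 45.6%, and the Slc8a2 window 9 CpG dinucleotides and 1 GC box at 63.2%. Over 32851 RefSeq promoters of the same length the median was 6 CpG dinucleotides, and 32.74% held a GC box. None of the 9 promoter windows of the 6 genes held the cyclic AMP response element TGACGTCA, the TATA box TATAAA or the E-box CACGTG, which were found in 1.55%, 12.37% and 6.02% of all promoters when both strands were searched.

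The 7 genes differed between regions in size and in direction. In the edgeR quasi-likelihood test over all 60 libraries with Benjamini-Hochberg adjustment, 6 of the 7 genes passed an adjusted p of 0.05 between cerebellum and cortex, where 79.6% of 20387 genes did. All 7 passed between cerebellum and striatum, where 79.8% of genes did, and 6 passed between striatum and cortex, where 57% did. A log2 change of at least 1 was reached as well by 4 of the 7 genes between cerebellum and cortex (25.3% of all genes) and by 4 between cerebellum and striatum (26.5% of all genes). None of the 7 reached it between striatum and cortex (8.04% of all genes). By direction, 2 were called higher and 4 lower in cerebellum than in cortex (40.1% and 39.5% of all genes), 3 higher and 4 lower in cerebellum than in striatum (39.7% and 40.2%), and 2 higher and 4 lower in striatum than in cortex (28.8% and 28.2%). Since most genes pass the first threshold, the counts say little about these 7 genes, and their sizes are given one by one. In bulk tissue, fewer cells of a type and less RNA per cell cannot be told apart.

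**Figure D1:**
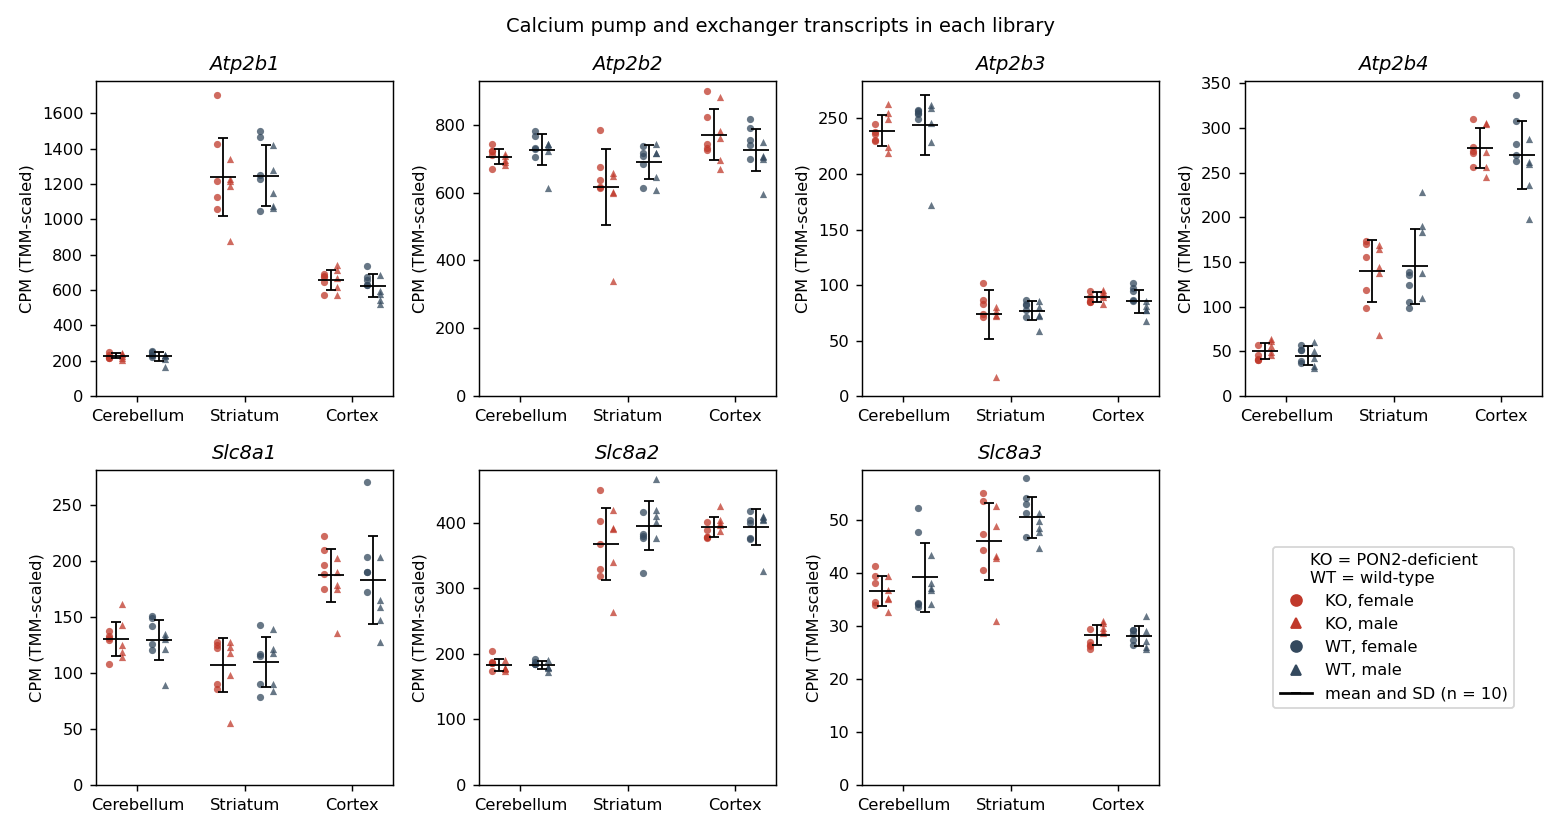
Expression of each gene in each library (vertical axis, TMM-scaled CPM), by region, with KO libraries left of WT libraries, circles for females, triangles for males, and bars for the mean and SD of 10 libraries. Atp2b1 separates the 3 regions completely (164 to 258 CPM in cerebellum, 875 to 1705 in striatum, 522 to 739 in cortex), whereas KO and WT overlap in every panel.

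Atp2b1 encodes PMCA1, the pump found in nearly all cell types (ENSMUSG00000019943, chr10:98914406-99026143, plus strand, GRCm38). Its CPM ranged from 164 to 258 in cerebellum (median 230), from 875 to 1705 in striatum (median 1222) and from 522 to 739 in cortex (median 649). Every striatum library lay above every cortex library, and every cortex library above every cerebellum library. The log2 difference was -2.45 for cerebellum minus striatum (SE 0.0551, 95% interval -2.56 to -2.34), -1.50 for cerebellum minus cortex (SE 0.0534, -1.60 to -1.39) and 0.96 for striatum minus cortex (SE 0.0527, 0.85 to 1.06). The adjusted p-values of the edgeR quasi-likelihood test were 9.24e-42, 3.92e-32 and 1.16e-22, in that order.

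Atp2b2 encodes PMCA2, the fastest of the pumps, which is abundant in Purkinje cells and in cochlear hair cells (ENSMUSG00000030302, chr6:113743831-114042613, minus strand). Its level was the most even of the 7: 613 to 782 CPM in cerebellum (median 721), 339 to 783 CPM in striatum (median 653) and 595 to 900 CPM in cortex (median 742). The regions overlapped throughout, and the lowest striatum value was that of the library that stood apart. Cerebellum and striatum differed by 0.14 (SE 0.0471, adjusted p = 0.00682 in edgeR's quasi-likelihood test), and striatum and cortex by -0.20 (SE 0.0471, adjusted p = 0.000248). Cerebellum minus cortex was -0.06 (95% interval -0.16 to 0.03, adjusted p = 0.221), and with upper-quartile scaling it was -0.10 and passed (adjusted p = 0.0453). Without male KO striatum replicate 5 the difference of cerebellum minus striatum was 0.10 and that of striatum minus cortex was -0.16, both still past the threshold.

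Atp2b3, an X-linked gene, encodes PMCA3, a pump that is nearly restricted to neurons (ENSMUSG00000031376, chrX:73503086-73571005, plus strand). It had 172 to 263 CPM in cerebellum (median 248), 17.1 to 102 CPM in striatum (median 77.2) and 67.4 to 101 CPM in cortex (median 86.3). All 20 cerebellum libraries exceeded every library of the other regions. The log2 difference was 1.69 for cerebellum minus striatum (SE 0.0829, adjusted p = 1.07e-25 in edgeR's quasi-likelihood test) and 1.47 for cerebellum minus cortex (SE 0.0824, adjusted p = 3.50e-23). It was the only pump with a higher level in cerebellum than in both other regions. Striatum minus cortex was -0.22 (SE 0.0814, adjusted p = 0.0207), a call that ended when the libraries numbered 1 or those numbered 4 were left out of all groups (adjusted p = 0.0541 and 0.0786). Without male KO striatum replicate 5 it was -0.15 (adjusted p = 0.00184).

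Atp2b4 encodes PMCA4, a slowly activated pump known from erythrocytes and from sperm, whose motility requires it in mice (ENSMUSG00000026463, chr1:133699457-133801041, minus strand). It had 31.7 to 64.4 CPM in cerebellum (median 47.6), 68.6 to 228 CPM in striatum (median 138) and 198 to 337 CPM in cortex (median 272). Cerebellum lay below the others without overlap, and striatum and cortex overlapped only through 1 library of each. Cerebellum minus cortex was -2.52 (SE 0.0923, 95% interval -2.70 to -2.33), the largest regional difference among the 7 genes, with an adjusted p of 1.31e-31 in edgeR's quasi-likelihood test. Cerebellum minus striatum was -1.57 (SE 0.0898, adjusted p = 8.52e-23), and striatum minus cortex was -0.95 (SE 0.0876, adjusted p = 5.71e-14).

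Slc8a2 encodes NCX2, an exchanger found mainly in brain (ENSMUSG00000030376, chr7:16129826-16161063, plus strand). It had 172 to 204 CPM in cerebellum (median 184), 264 to 466 CPM in striatum (median 386) and 326 to 426 CPM in cortex (median 399). Cerebellum lay below both other regions without overlap, and striatum and cortex overlapped over most of their range. The log2 difference was -1.05 for cerebellum minus striatum (SE 0.0392, adjusted p = 2.61e-31 in edgeR's quasi-likelihood test) and -1.10 for cerebellum minus cortex (SE 0.0392, adjusted p = 3.77e-32). Striatum minus cortex was -0.05 (95% interval -0.12 to 0.03, adjusted p = 0.316).

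Slc8a1 encodes NCX1, the exchanger of heart muscle that brain also makes (ENSMUSG00000054640, chr17:81373105-81738377, minus strand). It had 89.2 to 162 CPM in cerebellum (median 131), 55.6 to 143 CPM in striatum (median 118) and 127 to 271 CPM in cortex (median 189). The 3 ranges overlapped, with cortex highest. Cerebellum minus cortex was -0.51 (SE 0.0800, adjusted p = 1.15e-07 in edgeR's quasi-likelihood test), cerebellum minus striatum was 0.26 (SE 0.0801, adjusted p = 0.00304), and striatum minus cortex was -0.76 (SE 0.0804, adjusted p = 4.37e-12). An antisense gene on the other strand shares 296 exon bases with Slc8a1, and whether the counting used strand is not given in the sources used here.

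Slc8a3 encodes NCX3, an exchanger of brain and skeletal muscle (ENSMUSG00000079055, chr12:81197915-81333180, minus strand). It had 32.6 to 52.3 CPM in cerebellum (median 36.7), 30.9 to 57.8 CPM in striatum (median 48.7) and 25.6 to 31.8 CPM in cortex (median 28.6). Cerebellum lay above cortex without overlap, and only the library that stood apart brought striatum down into the cortex range. Cerebellum minus striatum was -0.35 (SE 0.0493, adjusted p = 9.48e-09 in edgeR's quasi-likelihood test), cerebellum minus cortex was 0.43 (SE 0.0498, adjusted p = 4.01e-11), and striatum minus cortex was 0.77 (SE 0.0499, adjusted p = 7.90e-20). It was the only one of the 3 exchangers with its highest level in striatum by these tests.

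**Figure D2:**
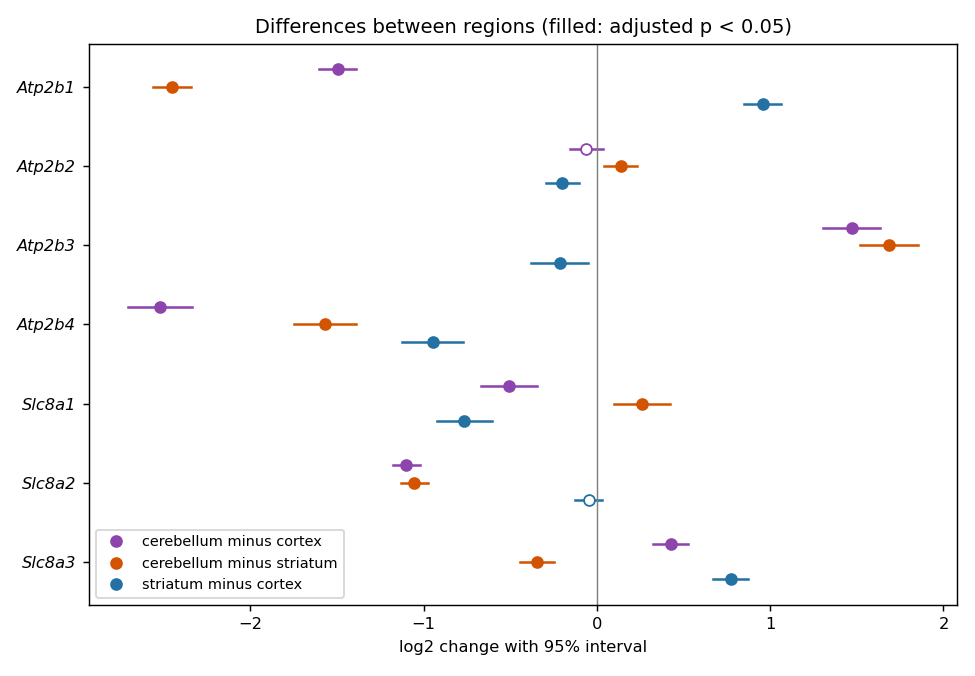
Log2 difference between regions (horizontal axis) with its 95% interval for each gene, from edgeR's quasi-likelihood test over 60 libraries. Filled points passed an adjusted p of 0.05, and the widest spread runs from Atp2b4 at -2.52 for cerebellum minus cortex to Atp2b3 at 1.69 for cerebellum minus striatum.

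Levels of different genes were compared per kilobase of the longest coding transcript in GENCODE M21. On that scale the pumps summed to 168.7 ± 10.6 CPM per kb in cerebellum, 276 ± 32.8 in striatum and 216 ± 17.6 in cortex (SD, n = 20 each). The exchangers summed to 49.6 ± 2.18 CPM per kb in cerebellum, 88.1 ± 9.89 in striatum and 90.5 ± 4.02 in cortex. The sum of the pumps was 3.40 ± 0.193 times that of the exchangers in cerebellum, 3.16 ± 0.356 times in striatum (3.11 ± 0.309 without male KO replicate 5) and 2.39 ± 0.154 times in cortex. With the merged exons of each gene as length, these ratios were 2.57, 1.85 and 1.58 in the same order of regions. In CPM without length they were 3.51, 3.95 and 2.88, with striatum rather than cerebellum highest. Their size and the order of cerebellum and striatum thus depend on the length used.

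The makeup of the pumps differed between regions. Of the summed pump level per kb in cerebellum, Atp2b2 made up 47.9 ± 1.54%, Atp2b3 30.8 ± 1.15%, Atp2b1 18.8 ± 0.791% and Atp2b4 2.42 ± 0.458% (SD, n = 20). In striatum Atp2b1 made up 63.0 ± 4.87% and Atp2b2 26.7 ± 3.03%, with 5.89% for Atp2b3 and 4.48% for Atp2b4. Without male KO replicate 5, Atp2b1 made up 62.1 ± 2.93% there. In cortex Atp2b1 (41.5 ± 1.48%) and Atp2b2 (39.0 ± 1.83%) lay close together, and Atp2b4 (10.8 ± 1.05%) and Atp2b3 (8.71 ± 0.613%) followed. Cortex is the region whose leading pump depends on the length: with merged exons Atp2b2 held 41.8% and Atp2b1 29.7%. With that length Atp2b2 stayed first in cerebellum (45.2%) and Atp2b1 in striatum (50.8%). In CPM without length, Atp2b4 (6.85%) lay above Atp2b3 (3.565%) in striatum, the reverse of their order per kb.

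Slc8a2 led the exchangers in every region. It made up 70.3 ± 1.89% of their summed level per kb in cerebellum, 82.1 ± 2.05% in striatum and 82.6 ± 1.84% in cortex (SD, n = 20 each). Per kb, the order below it changed between regions, and in cerebellum the other exchangers lay close together. Slc8a3 made up 15.5 ± 1.74% in cerebellum and 11.1 ± 1.22% in striatum but 6.33 ± 0.536% in cortex. Slc8a1 made up 14.2 ± 1.52% in cerebellum, 6.73 ± 1.52% in striatum and 11.1 ± 1.88% in cortex. That order rests on the division by length, 18.464 kb for Slc8a1 and 4.927 kb for Slc8a3. With merged exons Slc8a3 held 14.5% and Slc8a1 14.1% in cerebellum. In CPM without length Slc8a1 exceeded Slc8a3 in every region, with 36.9% against 10.8% in cerebellum, 20.2% against 8.98% in striatum and 30.4% against 4.66% in cortex. The shares of KO and WT libraries were close. Atp2b2 in striatum made up 25.7 ± 3.80% in KO libraries (26.7 ± 1.96% without male KO replicate 5) and 27.6 ± 1.67% in WT libraries, and Atp2b1 there made up 64.0 ± 6.38% in KO and 61.9 ± 2.64% in WT libraries (SD, n = 10 each).

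**Figure D3:**
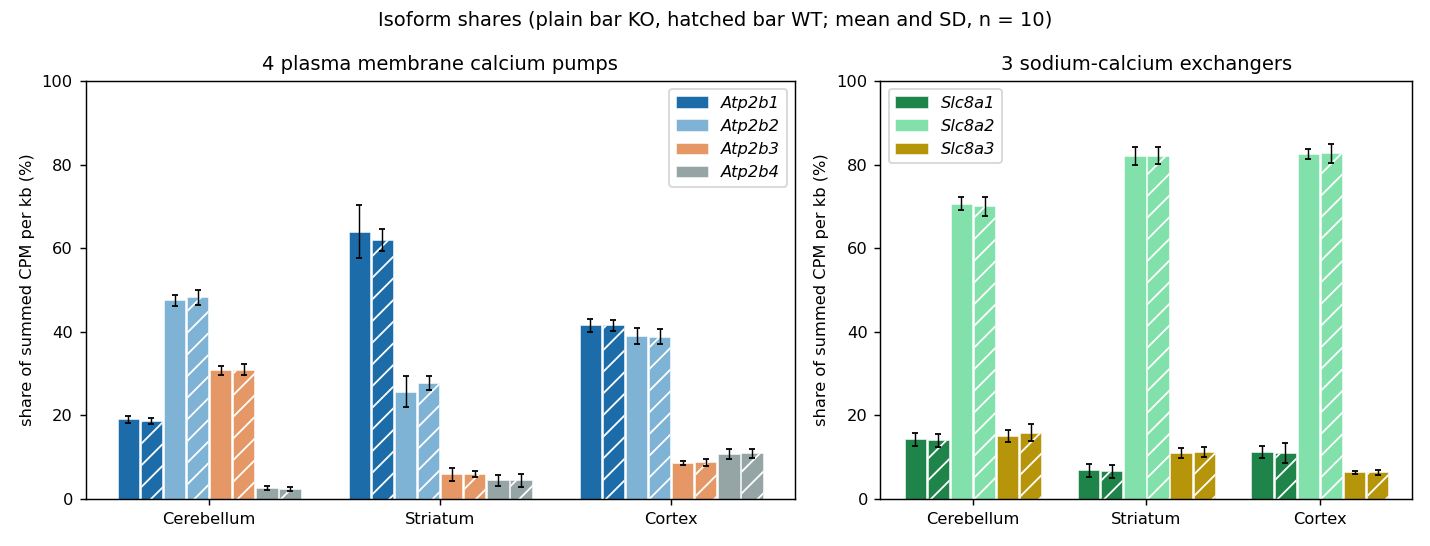
Share of each gene in the summed CPM per kb of the 4 pumps (left panel) and of the 3 exchangers (right panel), in percent, as bars with the mean and SD of 10 libraries, plain for KO and hatched for WT. The leading pump is Atp2b2 in cerebellum (47.9% over both genotypes) and Atp2b1 in striatum (63.0%), and Slc8a2 leads the exchangers throughout.

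The comparison of KO with WT littermates was the study's own question. None of the 7 genes passed the threshold in edgeR's quasi-likelihood test in any region, over both sexes, and none had an unadjusted p under 0.05 there. Such a p-value was found for 2081 of 18710 genes in cerebellum, 937 of 18962 in striatum and 2159 of 18972 in cortex. DESeq2 and limma also called 0 of 7. By edgeR the background was small: 0.0321% of genes passed in cerebellum, 0.0105% in striatum and 0.0316% in cortex. DESeq2 called more, with 242 genes in cerebellum, 6 in striatum and 232 in cortex, and limma called 16, 3 and 5. The values of KO and WT libraries overlapped for every gene in every region.

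In cerebellum, Atp2b4 had 40.1 to 64.4 CPM in KO libraries (median 47.6), against 31.7 to 60.6 CPM in WT libraries (median 46.4). The log2 difference was 0.14 (95% interval -0.10 to 0.38, adjusted p = 0.719 in edgeR's quasi-likelihood test), and it was the largest of the 7 there. Slc8a3 followed with -0.09 (-0.25 to 0.07). The interval of Slc8a2, the narrowest, ran from -0.06 to 0.06 around a difference below 0.01. The other 4 genes lay between -0.04 and 0.01. Male WT replicate 4 had the lowest Atp2b1, Atp2b2, Atp2b3 and Slc8a1 of the cerebellum libraries and the lowest length slope there (-0.10). None of the genes was called in any of 28 alternative settings, which include fits without single libraries. Over these settings the difference of Atp2b4 ran from 0.09 to 0.21.

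In striatum all 7 differences were negative. Atp2b2 had 339 to 783 CPM in KO libraries (median 626), against 606 to 744 CPM in WT libraries (median 711). Of 10 KO libraries 1 exceeded the WT median, and the ranges overlapped. The same count was found for Atp2b2 in cerebellum (difference -0.04) and for Slc8a2 in cortex (0.00). The log2 difference of Atp2b2 in striatum was -0.16 (SE 0.0924, 95% interval -0.36 to 0.03, adjusted p = 0.995 in edgeR's quasi-likelihood test). Slc8a3 followed with -0.14 (SE 0.0793, adjusted p = 0.995) and Slc8a2 with -0.10 (SE 0.0810, adjusted p = 0.995). Without male KO replicate 5 the difference was -0.09 for Atp2b2 (SE 0.0522, adjusted p = 0.642), -0.08 for Slc8a3 (adjusted p = 0.704) and -0.06 for Slc8a2 (adjusted p = 0.845), and those of Atp2b3 (0.04), Atp2b4 (0.05) and Slc8a1 (0.05) were positive.

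In cortex all 7 differences were positive over both sexes, but 6 of 7 were negative in females alone, and none was called. With the length slope of each library as a covariate, the differences of Slc8a1 (-0.17), Atp2b4 (-0.10) and Atp2b3 (-0.01) were negative over both sexes. Atp2b2 had 670 to 900 CPM in KO libraries (median 752), against 595 to 818 CPM in WT libraries (median 724). Its difference was 0.09 (95% interval -0.02 to 0.19, adjusted p = 0.550 in edgeR's quasi-likelihood test), the largest, and Slc8a2 had the smallest at 0.00 (-0.07 to 0.08). The upper bounds of the 7 intervals lay between 0.08 and 0.22, and the lower bounds between -0.14 and -0.02.

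**Figure D4:**
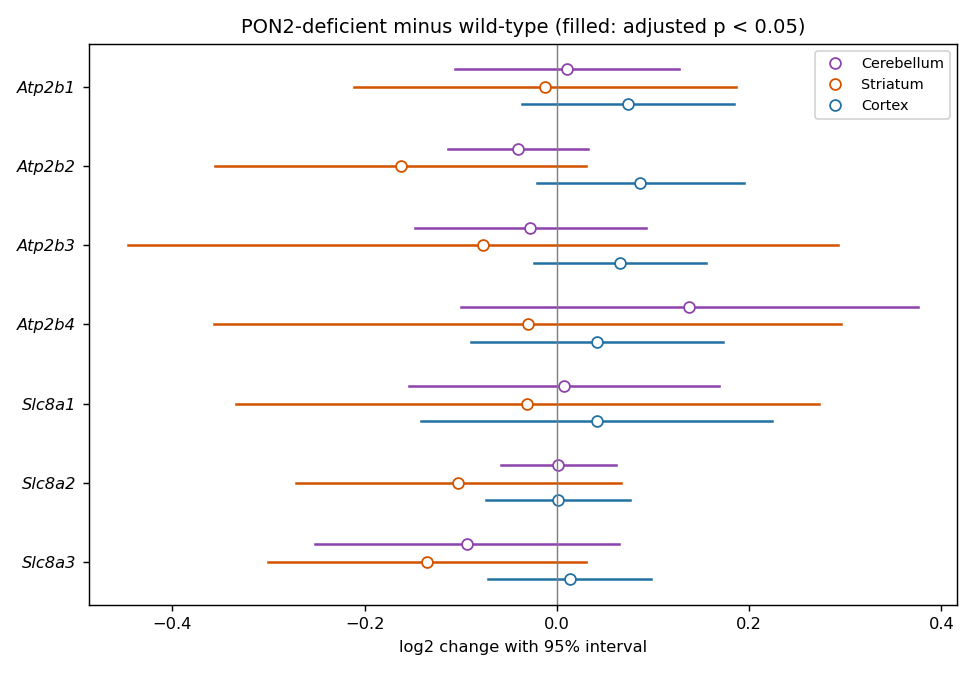
Log2 difference of KO minus WT (horizontal axis) with its 95% interval for each gene and region, from edgeR's quasi-likelihood test on 10 KO and 10 WT libraries per region. All 21 intervals include 0, and the widest belongs to Atp2b3 in striatum, where the library that stood apart is included.

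Direct tests of the difference between regions in the genotype effect called 0 of 7 genes in edgeR, DESeq2 and limma. The background by edgeR was 0.0147% of genes for cerebellum against cortex, 0.00981% for cerebellum against striatum and 0% for striatum against cortex. The largest value belonged to Atp2b2, whose KO minus WT difference was -0.16 in striatum, against 0.09 in cortex. Their difference was -0.25 (SE 0.0941, unadjusted p = 0.00988 and adjusted p = 0.654 in edgeR's quasi-likelihood test), and it was -0.18 without male KO striatum replicate 5 (adjusted p = 0.667).

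By sex, edgeR's quasi-likelihood test called 0 of 7 genes in each sex and region, and DESeq2 called 1. The share of all genes called was 0.00534% in females and 0.016% in males in cerebellum, 0.00527% in either sex in striatum, and 0.00527% in females and 0.148% in males in cortex by edgeR. DESeq2 called 2.05% of genes in male cortex, where its 1 call among the 7 lies. Unadjusted p-values under 0.05 in edgeR's quasi-likelihood test were found for Atp2b4 in male cerebellum and for Atp2b1 and Atp2b3 in male cortex. Of all genes, 1988 of 18710 had such a p-value in male cerebellum and 2657 of 18972 in male cortex. These hits therefore say little about the 7 genes. In male cerebellum Atp2b4 had 62.0, 64.4, 46.1, 49.0 and 56.5 CPM in KO libraries, against 42.4, 31.7, 60.6, 33.6 and 50.4 CPM in WT libraries. The groups overlapped, and the difference was 0.35 (SE 0.161, adjusted p = 0.451 in edgeR's quasi-likelihood test). In male striatum Atp2b2 had 658, 599, 648, 602 and 339 CPM in KO libraries, against 644, 716, 606, 744 and 716 CPM in WT libraries. These groups overlapped too, with a difference of -0.27 (adjusted p = 0.792 in edgeR's quasi-likelihood test) and of -0.13 without KO replicate 5 (adjusted p = 0.920).

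Atp2b3 in male cortex was the gene called by DESeq2. It had 91.1, 82.9, 95.2, 89.5 and 93.7 CPM in KO libraries, against 77.3, 77.2, 67.4, 81.6 and 85.3 CPM in WT libraries. Of the KO libraries 4 exceeded every WT library, and the groups overlapped through 1 library on either side. The log2 difference was 0.22 in edgeR's quasi-likelihood test (SE 0.0608, adjusted p = 0.116) and 0.22 in DESeq2 (adjusted p = 0.0376). In female cortex Atp2b3 had 84.5 to 94.3 CPM in KO libraries, against 85.5 to 101 CPM in WT libraries, the difference was -0.08 (SE 0.0606, adjusted p = 0.850), and the test of male minus female effect gave 0.30 (SE 0.0859, unadjusted p = 0.00217, adjusted p = 0.324).

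In male cortex all 7 KO minus WT differences were positive, with a median of 0.13 against a median near 0 over all genes, none of them called in edgeR. In female cortex 6 of the 7 were negative, with a median of -0.05, and none was called. The dependence of a library's deviations on transcript length moved with genotype there. Its slope ran from -0.01 to 0.02 log2 units per doubling of length in KO males and from -0.06 to 0.00 in WT males. With that slope as a covariate the difference of Atp2b3 was 0.04 (adjusted p = 0.863), those of Slc8a1 and Atp2b4 turned to -0.34 (adjusted p = 0.124) and -0.16 (adjusted p = 0.421), and none was called. Slc8a2 turned to -0.02 when WT male replicate 2, its lowest library, was left out. The part of this slope in the differences was not tested beyond that fit. The slope ranges of KO and WT overlapped in male cortex. Those of female striatum did not, with 0.0228 to 0.0352 in KO females and -0.0098 to 0.0174 in WT females.

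The tests of male minus female and of the sex difference in the genotype effect called none of the 7 genes in any region by edgeR, DESeq2 or limma. For male minus female, edgeR called 0.118% of genes in cerebellum, 0.105% in striatum and 0.0896% in cortex. For the sex difference in the genotype effect it called 0% in each region. The only unadjusted p-values under 0.05 for male minus female were those of Slc8a1 and Atp2b3 in cortex, where 1999 of 18972 genes had one. The difference was -0.26 for Slc8a1 (SE 0.0879, adjusted p = 0.305 in edgeR's quasi-likelihood test) and -0.10 for Atp2b3 (SE 0.0429, adjusted p = 0.409).

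The genes that work with the pumps and exchangers were read from 6 lists. Members of every list were called between regions, where 57% to 79.8% of all genes were. None was called for genotype over both sexes in any region by edgeR's quasi-likelihood test, where 0.0105% to 0.0321% of all genes passed. Counts of this kind say little about the lists. DESeq2 called 3 partner genes in male cortex, where it called 2.05% of all genes. The 3 cytosolic calcium buffers were higher in cerebellum. Calb1 (calbindin) had 932 ± 72.9 CPM in cerebellum, 194 ± 33.5 in striatum and 103 ± 13.7 in cortex (SD, n = 20 each), and all 20 cerebellum libraries exceeded the rest. Cerebellum minus cortex was 3.18 for Calb1, 3.83 for Calb2 (calretinin) and 3.40 for Pvalb (parvalbumin), and cerebellum minus striatum was 2.27, 3.91 and 3.82, with adjusted p-values of at most 2.23e-22 in edgeR's quasi-likelihood test. These proteins mark Purkinje cells, granule cells and interneurons of the cerebellum, and Calb1 also served as a Purkinje marker here.

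Of the 5 intracellular calcium pumps, 3 were called higher and 2 lower in cerebellum than in striatum, and 2 higher and 2 lower in cerebellum than in cortex, where about as many genes of all are called each way (39.7% and 40.2%, then 40.1% and 39.5%). Atp2a3, a pump that fills the endoplasmic reticulum and is known from Purkinje cells, had 241 to 293.5 CPM in cerebellum, 5.15 to 11.3 CPM in striatum and 6.80 to 12.6 CPM in cortex, without overlap between cerebellum and the rest. Its log2 difference was 4.88 for cerebellum minus cortex and 4.91 for cerebellum minus striatum (adjusted p = 2.67e-53 and 2.02e-53 in edgeR's quasi-likelihood test). Atp2a2, its widely expressed relative, was higher in cerebellum by 0.66 and 0.58 against the same regions. Between striatum and cortex only Atp2a2 (0.08) and Atp2c2 (-1.27, with mean levels under 1 CPM in both) passed.

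The sodium pump supplies the gradient that the exchangers use. Its beta subunit gene Atp1b2, expressed in glia, had 1211 ± 58.0 CPM in cerebellum, 389.8 ± 63.2 in striatum and 493.5 ± 21.0 in cortex (SD, n = 20 each). All 20 cerebellum libraries exceeded the rest, with log2 differences of 1.64 for cerebellum minus striatum and 1.30 for cerebellum minus cortex (adjusted p = 1.20e-37 and 6.64e-33 in edgeR's quasi-likelihood test). Striatum minus cortex was -0.35 for Atp1b2 (adjusted p = 1.15e-09 in the same edgeR test). Atp1b3, another beta subunit gene, was higher in cerebellum by 0.25 than in striatum and by 0.48 than in cortex, and higher in striatum than in cortex by 0.22.

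Of the 6 other exchangers, Slc24a4, a potassium-dependent sodium-calcium exchanger known from olfactory neurons and enamel-forming cells, differed most. It had 2.06 ± 0.466 CPM in cerebellum, 39.8 ± 10.8 in striatum and 22.6 ± 3.38 in cortex (SD, n = 20 each), and cerebellum lay below the rest without overlap. Its log2 difference was -4.27 for cerebellum minus striatum, -3.46 for cerebellum minus cortex and 0.81 for striatum minus cortex, all past the threshold in edgeR's quasi-likelihood test. Slc24a2, a potassium-dependent exchanger of neurons, was lower in cerebellum by -0.37 and -0.39. Slc8b1, the mitochondrial exchanger, was higher in cerebellum by 0.65 and 0.66 than in striatum and cortex, and it did not pass between those regions (0.01, adjusted p = 0.905).

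Calm2 and Calm3 encode calmodulin, the activator of the pumps, and both were lower in cerebellum than in cortex and in striatum. Calm3 had 1154 ± 98.8 CPM in cerebellum, 1404 ± 176 in striatum and 2033 ± 145 in cortex (SD, n = 20 each), with a log2 difference of -0.82 for cerebellum minus cortex, and that of Calm2 was -0.34. Nptn (neuroplastin) and Bsg (basigin), whose proteins are auxiliary subunits of the pumps, were higher in cerebellum than in cortex by 0.19 and 0.30. Of the 10 scaffold and anchor genes, 4 were called lower and 3 higher in cerebellum than in cortex, which is near the share over all genes (39.5% and 40.1%). Dlg4 (PSD-95), which holds pumps at synapses by its PDZ domains, had 255 to 306 CPM in cerebellum, 364 to 629 CPM in striatum and 511 to 653 CPM in cortex, with a log2 difference of -1.09 for cerebellum minus cortex. Slc9a3r2 (NHERF2), a partner of PMCA2, was higher by 1.01 and 1.16. Ank2, whose ankyrin anchors NCX1 and the sodium pump in heart muscle, was higher in cerebellum by 0.27 than in cortex and by 0.59 than in striatum.

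**Figure D5:**
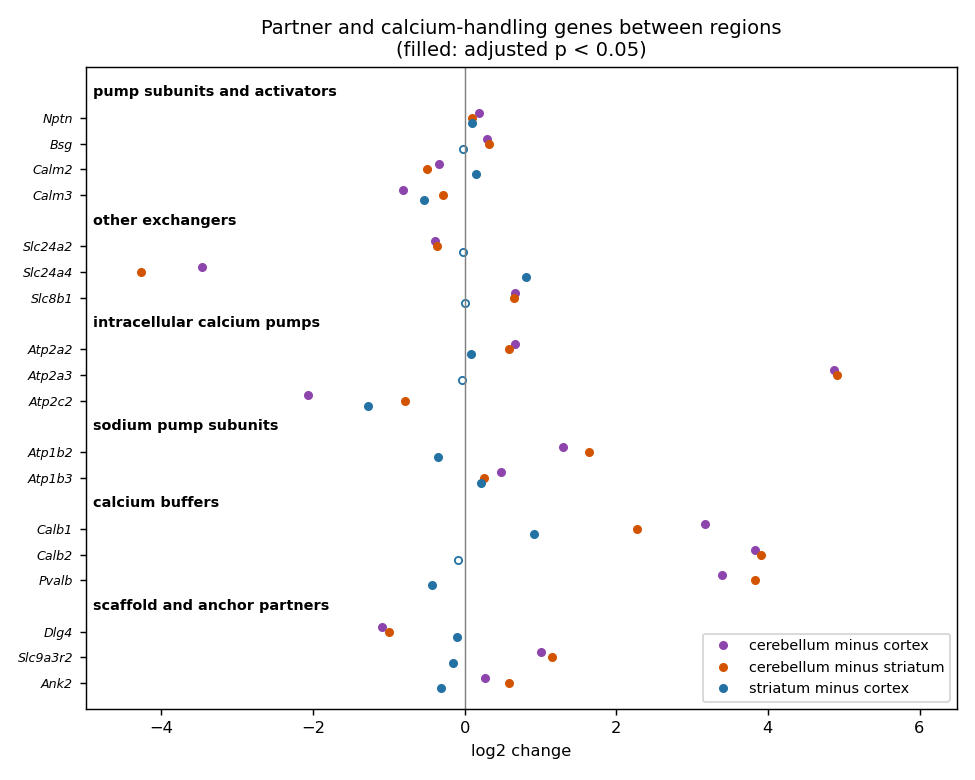
Log2 difference between regions (horizontal axis) for the 18 partner and calcium-handling genes named in the text, under their 6 lists, from edgeR's quasi-likelihood test over 60 libraries. Filled points passed an adjusted p of 0.05, and the points farthest from 0 are Atp2a3 at 4.91 and Slc24a4 at -4.27, both for cerebellum minus striatum.

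For each gene the most similar profiles over the 60 libraries were sought among 13818 genes that averaged 1 CPM or more, predicted genes and clone names left out, as a description, since all values share libraries and the region sets most of the correlation. The closest was Smpd3 for Atp2b1 (Pearson's r = 0.993), Gpc6 for Atp2b3 (0.982), Pcdh1 for Atp2b4 (0.977) and Dlg4 for Slc8a2 (0.985). Kcnj6 was closest to Slc8a1 (0.917), Pptc7 to Slc8a3 (0.903) and Fam168b to Atp2b2 (0.871). Without male KO striatum replicate 5 the r of Atp2b2 was 0.718 with Fam168b and 0.781 with Dagla, the next gene in order. The leading gene was then also passed by Dgkb for Atp2b1 (0.994), Pcsk2 for Slc8a2 (0.987) and Dnajc6 for Slc8a1 (0.902). Dlg4 is the scaffold gene described above, and it was also the gene whose deviations from the group means were most like those of Slc8a2 (r = 0.795, and 0.680 without male KO striatum replicate 5).

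With the mean of each of the 12 groups removed, the other leading genes were Caln1 for Atp2b1 (r = 0.833), Lmtk2 for Atp2b2 (0.923), Gabrb2 for Atp2b3 (0.959), Tub for Atp2b4 (0.770), Dnajc6 for Slc8a1 (0.897) and Cacna1h for Slc8a3 (0.751). The library that stood apart carried part of this: without it the values were 0.832 for Atp2b2 and Lmtk2, 0.816 for Atp2b3 and Gabrb2 and 0.656 for Slc8a3 and Cacna1h, and 0.835 for Atp2b1 and Caln1. Among the 7 genes themselves, without that library, deviations ran together most for Atp2b1 and Atp2b2 (r = 0.704), Atp2b4 and Slc8a1 (0.650) and Atp2b2 and Slc8a2 (0.615), and the most negative value was that of Atp2b4 and Slc8a3 (-0.405). With the library included, Atp2b1 and Atp2b2 had an r of 0.329, and Atp2b2 and Atp2b3 one of 0.757, against 0.341 without it.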

How the data were processed

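Total RNA of 60 tissue samples was sequenced. The submitters' processing notes name Salmon, limma and edgeR without versions. No genome build, annotation or strand setting is given in the sources used here. The authors deposited expected counts per gene for 20423 genes, with no normalization. The authors also deposited log2 CPM values, which matched a recomputation from TMM library sizes within 5.33e-14, and precision weights, a score per gene and library in which a higher value gives more influence.

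Expected counts were rounded and tested in R 4.3.3 with edgeR 4.0.16 (filterByExpr with a minimum count of 10, TMM, quasi-likelihood F-test, Benjamini-Hochberg adjustment over all genes at 0.05). Genotype and sex were tested within each region (20 libraries, 4 groups of 5), with 18710 genes in cerebellum, 18962 in striatum and 18972 in cortex. Region and region-by-genotype contrasts used 1 fit of 20387 genes over 60 libraries. Intervals are 95% intervals of the model. DESeq2 1.42.0 and limma 3.58.1 on the deposited values, other scaling, no filter, a replicate block, covariates and leaving out single libraries were alternatives. The fits were tested on simulated data. No 2 libraries had a correlation above 0.983, so none was treated as a repeat.

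GENCODE M21 (GRCm38) gave positions and lengths and matched 99.9% of the gene IDs. Partner genes are those of 6 lists of calcium-handling genes, and those named have the largest called changes in their list, with others added after their values were seen; some list members are not reported here. The members and lists were chosen with earlier results of these data known.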

Additional observations from a re-analysis of the deposited data

Results flagged for a closer look

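In 6 of 84 groups of 5 libraries, 1 library lay far below the other 4, and chance alone gives about 1 such group in 20. Atp2b2 had 339 CPM in male KO striatum replicate 5, against 599 to 658.5 CPM in the other 4 libraries of its group. Atp2b3 had 17.1 CPM in the same library, against 72.5 to 79.97 CPM. Male WT cerebellum replicate 4 had 613 CPM of Atp2b2, against 721.2 to 742.1 CPM in the others, and 89.2 CPM of Slc8a1, against 121.8 to 135.1 CPM. Slc8a1 had 108 CPM in female KO cerebellum replicate 2, against 129.6 to 137.4 CPM in the others. Slc8a2 had 326 CPM in male WT cortex replicate 2, against 403.4 to 410.7 CPM in the others. The first 2 libraries also had the lowest length slopes of their regions, -0.25 and -0.10 log2 units per doubling of length, and the part of that in these values was not tested.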

How the results depend on the processing

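The 7 genes were tested in 21 comparisons, 147 results of which 19 passed. Over 3402 recomputed values 3223 kept direction and side of the threshold, 175 uncalled values changed sign, and 4 changed their call. Those 4 are Atp2b3 for KO minus WT in male cortex with DESeq2, Atp2b2 for cerebellum minus cortex with upper-quartile scaling (-0.10, adjusted p = 0.0453 in edgeR), and Atp2b3 for striatum minus cortex without replicate 1 (-0.23, adjusted p = 0.0541) or without replicate 4 (-0.20, adjusted p = 0.0786). The number of the 7 genes called in male cortex was 1 with DESeq2. Without replicate 3, 1 gene rather than 0 reached a log2 change of 1 between striatum and cortex (0 to 1 over the replicates left out). Called partner genes numbered 3 for KO minus WT in male cortex with DESeq2, which called 2.05% of all genes there. They numbered 0 to 2 with a library left out (2 without male WT replicate 4). For male minus female in cortex 1 partner gene was called with DESeq2 and 0 to 1 with a library left out (1 without female KO replicate 2). In 1 fit over all 60 libraries 1 was called for KO minus WT in female striatum and 1 for the sex difference in the genotype effect in striatum, against 0 in the fits by region; the cause was not tested. The median log2 change of all genes was at most 0.04 in size in any setting.

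Of all genes, KO minus WT called 6 in cerebellum, 2 in striatum and 6 in cortex in edgeR, and DESeq2 called 242, 6 and 232. With limma the counts were 16, 3 and 5. The length slope as a covariate gave 143 in cortex. The choroid plexus mean as a covariate gave 2 in cortex and 4 in cerebellum. A fit over 60 libraries gave 13, 4 and 2, and upper-quartile scaling gave 10, 2 and 2. The replicate block gave 11, 3 and 24 and changed no call of the 7 genes (Atp2b2 in striatum -0.16, adjusted p = 0.995). The shared numbers are not labelled as pairs: deviations of same-numbered libraries of different regions had a median r of 0.102 (-0.0861 to 0.249), against -0.0219 for different numbers. The best match in another region had the same number in 73 of 120 cases (24 by chance). Same-numbered libraries of different genotypes, within a region and sex, had a median r of 0.0854, against 0.0127 for different numbers. The best match in the other genotype had the same number in 19 of 60 cases (12 by chance). The numbers may thus mark something shared between libraries, and what they mark was not tested. The region tests treat libraries as independent, and with the block they called 6, 7 and 6 of the 7 genes, as without it. Depth was even (26091911 to 28125224 counts), and 5 libraries a group limit the precision.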
